A study of Mus musculus with 8 samples.

Results

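The genes of respiratory complex I were described in soleus muscle of 4 male Ts65Dn mice and 4 male wild-type mice, all 5 months old, in the basal state, with 1 array per mouse. Members were the genes whose symbol starts with Ndufa, Ndufb, Ndufc, Ndufs or Ndufv followed by a number, Ndufab1, and, shown apart, the assembly factors Ndufaf with a number. Only probe sets annotated to 1 symbol were used, with the probe set of highest mean over the 8 arrays where a gene had several. This gave 43 of the 19938 genes tested, 36 of them subunit genes and 7 of them assembly factors. Ndufb1, Ndufb4 and Ndufaf8 were not analysed here as members, because no probe set names them alone.

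Ts65Dn is a mouse model of Down syndrome that carries an extra marker chromosome, with the distal end of chromosome 16 joined to the centromeric end of chromosome 17, in addition to the normal set. The part from chromosome 17 holds genes that have no counterpart on the human chromosome concerned, which limits the strain as a model. The wild-type mice carry the strain label B6EiC3SnF1/J, described there as a mixed background of B6 and C3H mice, and no treatment is named for either group. None of the 43 members lies in either trisomic segment: 0 are on chromosome 16, and the 6 on chromosome 17 are outside the segment. Ndufv3 is 1 of those 6, and its human counterpart does lie on the chromosome that is trisomic in Down syndrome. The labels do not say whether mice shared a litter, so that p-values measure the spread between these animals only.

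Complex I, NADH:ubiquinone oxidoreductase, is the largest enzyme of the mitochondrial respiratory chain. A peripheral arm in the matrix takes electrons from NADH through a flavin and a row of iron-sulphur clusters to ubiquinone, and a membrane arm uses the energy released to pump protons. The core subunits do the chemistry, part of them encoded in mitochondrial DNA, and the accessory subunits surround and stabilise them, while assembly factors help to build the complex and then leave it. Soleus is a postural muscle of slow and fast oxidative fibres that are rich in mitochondria and relies on this enzyme for sustained work.

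No complex I gene passed the threshold in either direction. Of the 36 subunit genes, 0 were called by limma at an adjusted p of 0.05, and 1, Ndufb2, had an unadjusted p under 0.05. Of all 19938 genes, 1049 were called, 5.26%, and 34.8% had an unadjusted p under 0.05. The log2 fold changes of the subunits, Ts65Dn minus wild type, ran from -0.28 for Ndufb2 to 0.22 for Ndufa4l2, with a median of -0.038 and 26 of 36 below 0. The 7 assembly factors also gave 0 calls, with 1, Ndufaf7, at an unadjusted p under 0.05, and a median of 0.058.

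Complex I genes are read in the nucleus by factors that also serve other respiratory genes, among them NRF-1, GABP, YY1 and ERR alpha, so their promoters were searched for the short letters these factors are known to bind. RefSeq promoter windows of GRCm38.p6, from 250 bases before to 50 after each gene's start, matched 38 of the 43 members with 40 promoters, and 32851 promoters made up the whole table. Both strands were searched for 5 motifs, and a match describes letters only. The YY1 letters AAGATGGC stood in 7 of the 40 member promoters, 17.5%, against 2.75% of all promoters. All 7 matches lay on the gene's own strand, with their first base between 23 and 39 bases from the start. They are shown because this position was shared, with the matched letters in capitals, read on the gene's strand from 5′ to 3′:
Ndufa3, chr7:3617384-3617413, plus strand: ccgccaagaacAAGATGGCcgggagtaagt
Ndufa9, chr6:126849097-126849126, minus strand: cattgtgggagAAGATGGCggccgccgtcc
Ndufb8, chr19:44555393-44555422, minus strand: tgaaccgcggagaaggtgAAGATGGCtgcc
Ndufc1, chr3:51408915-51408944, minus strand: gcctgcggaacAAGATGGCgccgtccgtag
Ndufs4, chr13:114388045-114388074, minus strand: gcgtttgcctacaggAAGATGGCggcggtc
Ndufs6, chr13:73328433-73328462, minus strand: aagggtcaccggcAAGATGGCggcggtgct
Ndufs7, chr10:80249462-80249491, plus strand: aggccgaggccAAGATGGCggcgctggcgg

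The letters contain ATG, and matches of different motifs overlapped at 0 places in the member promoters. Ndufa3 and Ndufs7 are the members of this set with the most negative log2 fold changes, -0.26 and -0.14, and their values by mouse are given with their part of the complex. The GABP letters CCGGAAG are shown next because Gabpa, which encodes the DNA-binding subunit of that factor, is itself a gene of the trisomic segment. They stood in 5 member promoters, 12.5%, against 8.86% of all. Where the reverse complement was the match, CTTCCGG is in capitals, and for Ndufs3, which has a match on each strand, the upstream one is shown:
Ndufaf1, chr2:119662834-119662863, minus strand: cgggaccacaaCCGGAAGcgtggcgaaccg
Ndufb6, chr4:40279635-40279664, minus strand: tcgtccttgttCTTCCGGtcccctccccta
Ndufb7, chr8:83566727-83566756, plus strand: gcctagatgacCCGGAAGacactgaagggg
Ndufs3, chr2:90904730-90904759, minus strand: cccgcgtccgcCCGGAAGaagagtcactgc
Ndufs8, chr19:3912741-3912770, minus strand: ttaggctccgcCTTCCGGttgaaccgcatc

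Ndufs3 and Ndufs8 of this set belong to the quinone-binding core. The median log2 fold change was -0.13 over the 5 genes with the GABP letters and -0.027 over the matched members without them. Level-matched, these medians were -0.16 and -0.10. The NRF-1 letters GCATGCGC stood in 5 member promoters, those of Ndufa11, Ndufa6, Ndufa8, Ndufaf4 and Ndufaf5, or 12.5% against 2.71% of all. These letters nearly read the same on both strands, so 1 site can match on each. The median log2 fold change was -0.068 with them and -0.020 without. The YY1 set had a median of -0.090 and the members without it -0.020. The ERR alpha letters AAGGTCA stood in 2 member promoters, 5.0% against 4.72% of all, and the TATA box letters TATAAA in 5 promoters of 4 genes, 12.5% against 13.6%. The medians with and without were -0.15 and -0.024 for the ERR alpha letters, and -0.14 and -0.020 for the TATA box letters. Genes with the letters thus had the lower median for all 5 motifs, the TATA box included. None of these medians was tested.

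The arrays differed in ways that touch every value given here. The interquartile range of all genes was 2.70 to 2.81 in the Ts65Dn arrays and 2.09 to 2.48 in the wild-type arrays, with wild-type mice 2 and 3 narrowest at 2.23 and 2.09. Those arrays also had the lowest weights in limma, 0.63 and 0.34 against 1.17 to 1.56 for the other arrays. The median log2 fold change of all genes was -0.10, and it varied with a gene's level. For that reason values of the members are also given level-matched, in which the 100 non-member genes nearest in mean level served as the reference: their median deviation in an array was taken off the gene's value in that array. On level-matched values limma called 90 genes, 0.451%, and 20.9% had an unadjusted p under 0.05.

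The label of skeletal muscle was checked against 17 markers. All were measured, with a summed level, on the log2 scale, of at least 15.89 in the Ts65Dn arrays and 15.83 to 15.92 in the wild-type arrays, and 0 were called. The summed level of 10 slow-fibre markers was 15.00 to 15.11 in Ts65Dn and 14.96 to 15.07 in wild type. That of 12 fast-fibre markers was 15.11 to 15.22 and 15.01 to 15.11, which hides differences in single markers. Myh4 was 10.52 in Ts65Dn mouse 4 against 5.89 to 6.76 in the other mice. Actn3 was 9.26 there against 5.04 to 7.76, while the other fast-fibre markers did not set this mouse apart. The cause was not tested. Of 6 endothelial markers 2 were called higher in Ts65Dn, Kdr and Emcn, with summed levels of 8.78 to 9.10 against 7.94 to 8.54. Of 9 macrophage markers 1 was called, Cd68, at a log2 fold change of 2.39. The summed level, of which Cd68 is a part, was 8.74 to 10.07 against 8.32 to 8.62. The other macrophage markers ran from -0.088 for C1qa to 0.42 for Lyz2, with Adgre1 at -0.051, and none of them was called. Fibroblast markers gave 1 call of 6, and the measured adipocyte, Schwann cell and erythroid markers gave 0 calls of 7, 4 and 2. The part of these cell types in the values of the complex I genes was not tested. In bulk muscle, fewer fibres and less RNA per fibre cannot be told apart.

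The median of the subunits was lower than that of genes of like level, a difference that was not tested. Without Ndufa4l2, whose level is far from the rest, 35 subunits had means between 8.67 and 12.13, and the 100 non-member genes nearest in mean level to each of them made up 692 genes. Of the subunits 26, 74.3%, were below 0, with a median of -0.047, while of the like-level genes 196, 28.3%, were below 0, with a median of 0.083. Of those like-level genes 8, 1.16%, were called and 77, 11.1%, had an unadjusted p under 0.05. Level-matched, the median over all 36 subunits was -0.094 and 29 were below 0. On that scale 3 had an unadjusted p under 0.05, Ndufb2, Ndufs8 and Ndufa3, the lowest adjusted p was 0.0969 by limma, and 0 were called.

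**Figure D1:**
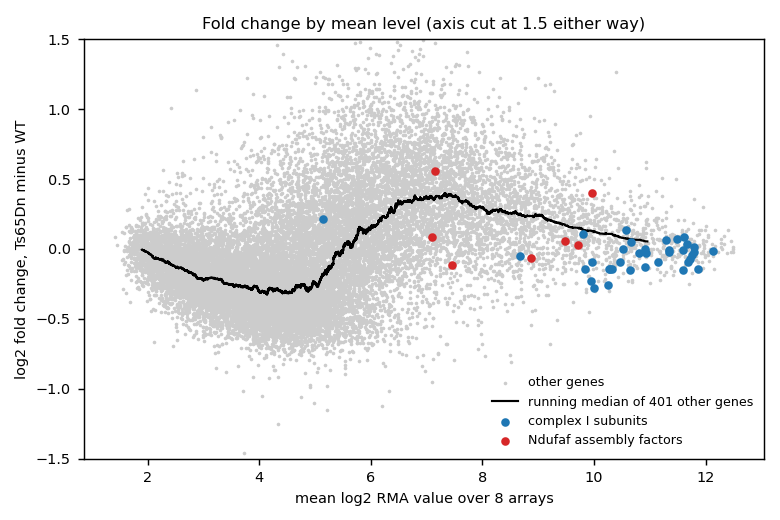
Mean log2 level over the 8 arrays on the x axis against the log2 fold change, Ts65Dn minus wild type, on the y axis. Grey points are all other genes, with 19 beyond the limit of 1.5 left off, the line is a running median along the level, and the coloured points are the complex I members. Most subunits lie at the right and below the line, which ends short of the highest levels. Their median is -0.038, while the like-level genes have a median of 0.083.

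The sign of the subunit median itself was not stable. Centring each array on its median gave a median of 0.15, with 3 of 36 subunits below 0, whereas cyclic loess gave -0.13 with 32 below 0. Centring moves the log2 fold change of every gene by the same amount, so that the distance to like-level genes stays as it is. Leaving out wild-type mouse 4 turned the subunit median to 0.015, with 17 below 0. Leaving out both wild-type mice 2 and 3 gave -0.12 with 34 below 0. The 95% interval of the log2 fold change lay within 1.5-fold, 0.58 on the log2 scale, for 35 of the 36 subunits. The exception was Ndufa4l2, whose interval reached 0.61. The most negative bound of any subunit was -0.56. Level-matched, 31 of 36 intervals lay within 1.5-fold.

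**Figure D2:**
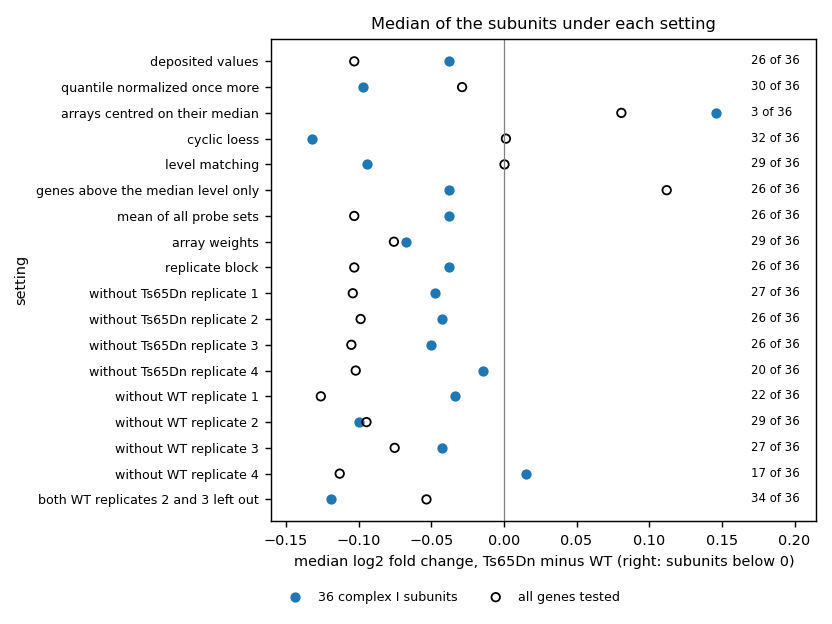
Median log2 fold change, Ts65Dn minus wild type, on the x axis, for the deposited values and other ways of processing them on the y axis. Filled points are the 36 complex I subunits, open points are all genes tested, and the text at the right counts the subunits below 0. The subunit median runs from -0.13 under cyclic loess to 0.15 after centring, on both sides of 0.

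None of the 3 core subunits at the NADH end of the peripheral arm passed the test, and their log2 fold changes ran from 0.0016 for Ndufv2 to 0.14 for Ndufs1. Ndufv1, which binds the flavin that accepts electrons from NADH, had log2 values of 10.68, 10.73, 10.67 and 10.72 in the Ts65Dn mice and 10.73, 10.57, 10.57 and 10.73 in the wild-type mice. Wild-type mice 2 and 3 were below all Ts65Dn mice, and the other wild-type mice were at the top of the Ts65Dn range. The log2 fold change was 0.051 ± 0.11 (SE, n = 4 per group), with an adjusted p of 0.745 by limma. Ndufv2, an iron-sulphur subunit that sits against Ndufv1, had 10.99, 10.92, 10.94 and 10.81 in Ts65Dn and 10.99, 10.79, 10.84 and 11.03 in wild type. The groups overlapped over most of their range, with a log2 fold change of 0.0016 and an interval of -0.24 to 0.25. Ndufs1, the large subunit that carries several iron-sulphur clusters, had 10.66, 10.70, 10.71 and 10.49 in Ts65Dn and 10.72, 10.44, 10.17 and 10.68 in wild type. Wild-type mouse 3 was lowest and the other wild-type mice spanned the Ts65Dn values, and the log2 fold change was 0.14 ± 0.14 (adjusted p = 0.494, limma). Level-matched, Ndufv1, Ndufv2 and Ndufs1 stood at -0.026, -0.086 and 0.066. Without wild-type mice 2 and 3 the log2 fold changes of all 3 were negative, at -0.031, -0.093 and -0.059.

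The core subunits Ndufs8, Ndufs7 and Ndufs3, which lie on the way of the electrons to ubiquinone, were below 0, and none passed the test. Ndufs8, an iron-sulphur subunit of this path, had 9.89, 9.73, 9.84 and 9.89 in the Ts65Dn mice and 9.93, 10.13, 9.92 and 10.30 in the wild-type mice. Its groups did not overlap, although wild-type mice 1 and 3 were just above the highest Ts65Dn mice. Among the 36 subunits it was the only gene of which that holds. The same held for 22.7% of all genes tested and for 83 of the 692 like-level genes. Its log2 fold change was -0.23 ± 0.12 (SE, n = 4 per group), with an interval of -0.50 to 0.040 and an adjusted p of 0.198 by limma, or 0.125 level-matched. Ndufs7, which carries the last iron-sulphur cluster before ubiquinone, had 9.74, 9.72, 9.77 and 9.84 in Ts65Dn and 9.76, 9.88, 10.07 and 9.91 in wild type. The groups overlapped through wild-type mouse 1, and the log2 fold change was -0.14 (adjusted p = 0.371, limma). Ndufs3, a core subunit without a cofactor, had 10.83, 10.88, 10.92 and 10.80 in Ts65Dn and 11.00, 10.81, 11.03 and 11.09 in wild type. In this gene 3 wild-type mice were above all Ts65Dn mice and wild-type mouse 2 was among them, with a log2 fold change of -0.13 (adjusted p = 0.423). Level-matched, Ndufs8, Ndufs7 and Ndufs3 stood at -0.35, -0.27 and -0.21. After centring the arrays Ndufs7 and Ndufs3 turned to 0.042 and 0.057, and Ndufs8 was at -0.048.

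Within each array, the mean of the NADH-end core genes minus that of the quinone-end core genes was 0.62, 0.67, 0.60 and 0.50 in the Ts65Dn mice and 0.58, 0.33, 0.19 and 0.38 in the wild-type mice. Wild-type mouse 1 lay within the Ts65Dn range and the others below it. The means were 0.60 ± 0.072 (SD, n = 4) and 0.37 ± 0.16 (SD, n = 4), a difference of 0.23 that was noted after the values were seen and was not tested. Centring leaves such a difference as it is, and under cyclic loess and level matching it was 0.26. Without wild-type mice 2 and 3 it was 0.12.

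The accessory subunits of the peripheral arm had a median of -0.047, with 6 of 9 below 0. Ndufv3, a small subunit at the NADH end, had 10.43, 10.45, 10.68 and 10.52 in the Ts65Dn mice and 10.60, 10.22, 10.58 and 10.69 in the wild-type mice. All Ts65Dn values lay within the wild-type range, the log2 fold change was -0.00075 and the interval ran from -0.30 to 0.29. Ndufa2, a small subunit of the NADH end with a thioredoxin-like fold, had 11.49, 11.53, 11.54 and 11.54 in Ts65Dn and 11.50, 11.65, 11.86 and 11.70 in wild type. There 3 wild-type mice were above all Ts65Dn mice and wild-type mouse 1 was among them, with a log2 fold change of -0.15 (adjusted p = 0.345, limma). Ndufs4, whose loss causes a Leigh-like encephalopathy in mice, stood at 0.017 with an interval of -0.23 to 0.26. Ndufs6, which binds zinc, stood at -0.047, and Ndufa9, which binds a nicotinamide nucleotide, at 0.064. The LYR protein Ndufa6 and Ndufa12 were at -0.14 and -0.14, Ndufa5 at 0.037 and Ndufa7 at -0.048.

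**Figure D3:**
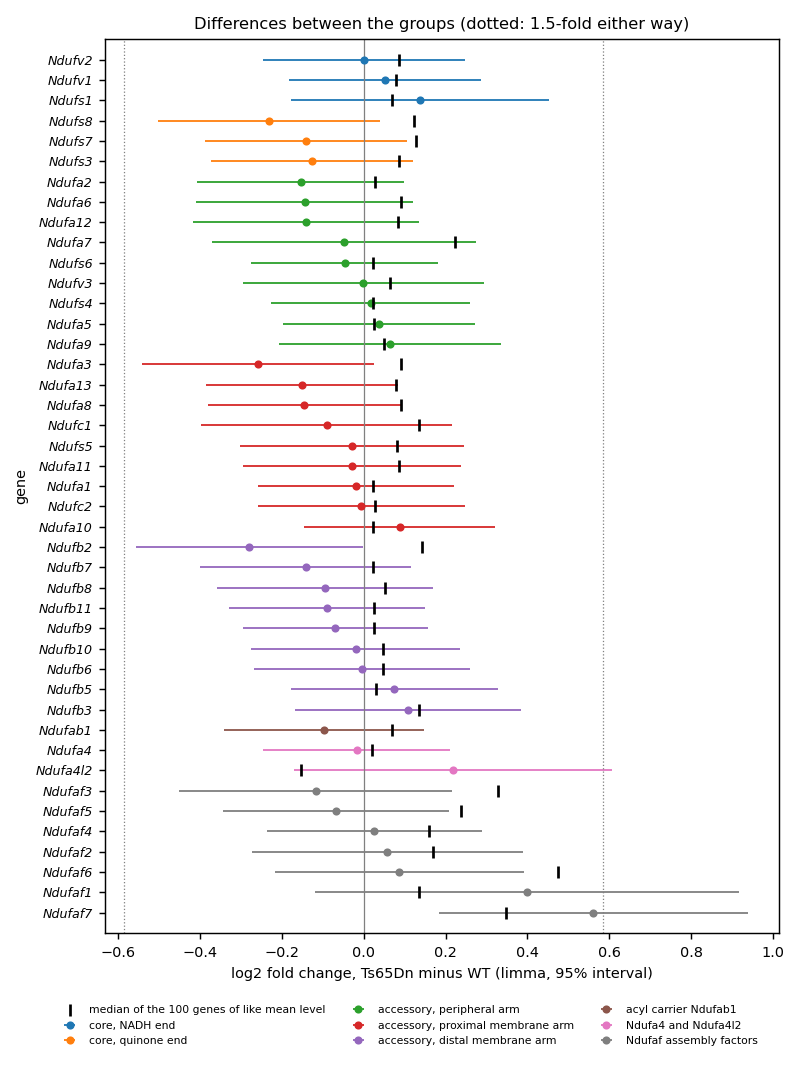
Log2 fold change, Ts65Dn minus wild type, of each of the 43 members on the x axis, grouped by role, with the 95% interval from limma (n = 4 per group). Black ticks mark the median log2 fold change of the 100 non-member genes nearest in level, and dotted lines 1.5-fold in either direction. Nearly all intervals include 0; those of Ndufb2, which ends at -0.0020, and Ndufaf7, from 0.18 to 0.94, do not.

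Accessory subunits of the proximal part of the membrane arm had a median of -0.028, with 8 of 9 below 0. Ndufa3, a small membrane subunit, had 9.92, 10.00, 10.37 and 10.21 in the Ts65Dn mice and 10.32, 10.40, 10.36 and 10.47 in the wild-type mice. Ts65Dn mice 1, 2 and 4 were below all wild-type mice and Ts65Dn mouse 3 was among them, and the log2 fold change was -0.26 ± 0.13 (SE, n = 4 per group; adjusted p = 0.175, limma). Ndufa13, also known as GRIM-19, had 10.59, 10.56, 10.50 and 10.64 in Ts65Dn and 10.68, 10.63, 10.80 and 10.78 in wild type. Ndufa8, which faces the intermembrane space and is held by disulphide bonds, had 10.11, 10.22, 10.30 and 10.19 in Ts65Dn and 10.27, 10.33, 10.41 and 10.38 in wild type. In both genes the groups overlapped only at their edges, with log2 fold changes of -0.15 and -0.14 and adjusted p of 0.317 and 0.338 by limma, and after centring the arrays they stood at 0.033 and 0.039. Level-matched, Ndufa3, Ndufa13 and Ndufa8 stood at -0.34, -0.23 and -0.21, and Ndufa3 was at -0.075 after centring. Ndufa10, the 1 gene of these 9 above 0, is related to nucleoside kinases and stood at 0.088. Ndufa1, Ndufc2 and Ndufs5 were between -0.028 and -0.0057, and Ndufc1 was at -0.090.

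Ndufa11, which lies where complex I meets complex III in the supercomplex, was the only one of the 5 members with several probe sets whose probe sets differed in sign, at -0.027 and 0.018. The probe set used had 10.85, 10.91, 10.92 and 11.01 in Ts65Dn and 11.00, 10.79, 10.84 and 11.17 in wild type, with all Ts65Dn mice inside the wild-type range.

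Of the 9 accessory subunits in the distal part of the membrane arm, 7 were below 0 and the median was -0.069. Ndufb2, a small membrane subunit, had 9.75, 9.85, 9.98 and 9.86 in the Ts65Dn mice and 10.17, 9.90, 10.14 and 10.34 in the wild-type mice. Only Ts65Dn mouse 3 and wild-type mouse 2 crossed, and the log2 fold change was -0.28 ± 0.12 (SE, n = 4 per group), with an interval of -0.56 to -0.0020 and an adjusted p of 0.141 by limma. Level-matched, its value was -0.41 with an adjusted p of 0.0969, and after centring the arrays it was -0.095. Ndufb3, a small subunit of the same part of the membrane arm, had 9.83, 9.91, 9.89 and 9.84 in Ts65Dn and 9.98, 9.64, 9.55 and 9.87 in wild type. Its Ts65Dn values lay close together within a wide wild-type range, with a log2 fold change of 0.11 (adjusted p = 0.543) that became -0.025 when level-matched. The disulphide-bonded subunits Ndufb7 and Ndufb10 stood at -0.14 and -0.020. Ndufb8, whose protein is often used on blots as a marker of assembled complex I, stood at -0.094. Ndufb9, Ndufb11, Ndufb6 and Ndufb5 were at -0.069, -0.090, -0.0045 and 0.075.

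Ndufab1, the mitochondrial acyl carrier protein that also takes part in fatty acid synthesis, stood at -0.10 (adjusted p = 0.541, limma), with its other probe set at -0.089. Ndufa4, first described in complex I and now assigned to complex IV, had 12.14, 12.17, 12.13 and 12.03 in Ts65Dn and 12.17, 12.06, 12.15 and 12.16 in wild type. Wild-type mouse 2 stood below the other wild-type mice, Ts65Dn mouse 4 was lowest of all, and the log2 fold change was -0.017. Ndufa4l2, a paralogue known to be induced by low oxygen, had 5.37, 5.02, 5.04 and 5.61 in Ts65Dn and 5.06, 4.93, 4.79 and 5.40 in wild type. The groups overlapped and the interval was wide, with a log2 fold change of 0.22 ± 0.18 (adjusted p = 0.382, limma) and 0.42 level-matched.

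Among the Ndufaf assembly factors the median SD was 0.19 in the Ts65Dn mice and 0.17 in the wild-type mice, against 0.057 and 0.15 for the subunits. Ndufaf7, a methyltransferase that acts early in assembly, had 7.70, 7.25, 7.52 and 7.28 in the Ts65Dn mice and 7.03, 6.76, 6.51 and 7.20 in the wild-type mice. Its groups did not overlap, which held for 22.7% of all genes tested, and Ts65Dn mice 2 and 4 were just above wild-type mouse 4. The log2 fold change was 0.56 ± 0.17 (SE, n = 4 per group), with an interval of 0.18 to 0.94 and an adjusted p of 0.0643 by limma, short of the threshold. Without wild-type mouse 4 it was 0.67 with an adjusted p of 0.0428 by limma, which is a call, but that fit called 2422 of the 19938 genes. Level-matched the log2 fold change was 0.28 with an adjusted p of 0.282. Without wild-type mice 2 and 3 it was 0.32 with an adjusted p of 0.341. Ndufaf1, which helps to build the membrane arm, had 10.36, 10.26, 10.16 and 9.91 in Ts65Dn and 10.32, 9.66, 9.08 and 10.02 in wild type. Wild-type mice 2 and 3 were lower than all Ts65Dn mice and the other wild-type mice were among them, with a log2 fold change of 0.40 ± 0.23 (adjusted p = 0.238) and 0.29 level-matched. It was 0.17 without wild-type mouse 3, 0.19 with array weights and 0.0011 without wild-type mice 2 and 3. Ndufaf3, an early factor that works together with Ndufaf4, had 7.32, 7.52, 7.68 and 7.10 in Ts65Dn and 7.30, 7.51, 7.71 and 7.56 in wild type. Its groups overlapped, with a log2 fold change of -0.12 and -0.44 level-matched.

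Of the remaining factors, Ndufaf2, a paralogue of Ndufa12, stood at 0.058 and Ndufaf4 at 0.026. Ndufaf5, which hydroxylates Ndufs7, was at -0.068, and Ndufaf6 at 0.087. Level-matched, Ndufaf2, Ndufaf4, Ndufaf5 and Ndufaf6 stood at -0.10, -0.13, -0.28 and -0.34. On that scale Ndufaf6 was the 1 gene of the 7 with an unadjusted p under 0.05, its adjusted p was 0.197 by limma, and 0 were called. Thus 5 of the 7 were above 0, but level-matched 5 were below 0, with a median of -0.13. The intervals of 5 lay within 1.5-fold.

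**Figure D4:**
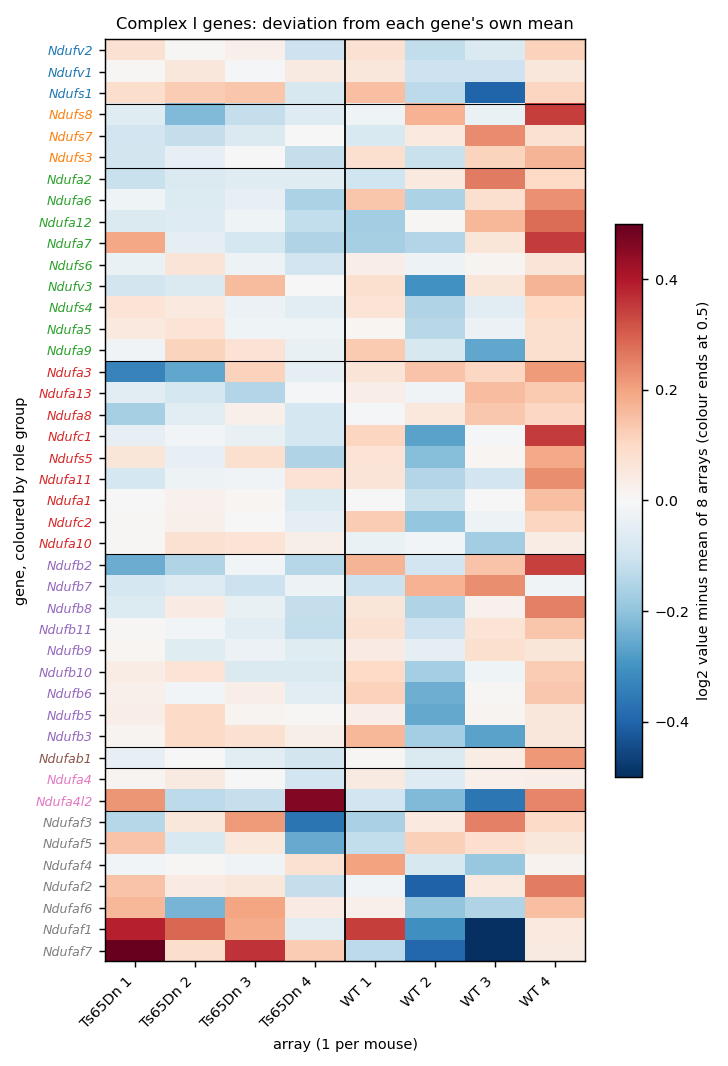
Deviation of each member's log2 value from its own mean over the 8 arrays, with members grouped by role in rows and mice in columns; the colour scale ends at 0.5 in either direction. The column of wild-type mouse 4 is mostly above the mean and that of wild-type mouse 2 mostly below it among the subunits, while most subunits are pale in the Ts65Dn columns, where their median SD is 0.057.

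The subunits varied more among the wild-type mice than among the Ts65Dn mice. Their median SD was 0.057 in Ts65Dn and 0.15 in wild type, and the wild-type SD was larger in 31 of 36. Like-level genes did the same, with medians of 0.085 and 0.17 and a larger wild-type SD in 574 of 692. Wild-type mouse 4 held the highest value of 20 subunits and the lowest of 0, and wild-type mouse 2 the lowest of 14 and the highest of 0. The mean over the 36 subunits was 10.72, 10.73, 10.74 and 10.70 in the Ts65Dn mice and 10.78, 10.65, 10.75 and 10.90 in the wild-type mice. The Ts65Dn means thus lay between those of wild-type mice 2 and 3. Group means were 10.72 ± 0.017 and 10.77 ± 0.10 (SD, n = 4 each). Level-matched, the mean deviation was -0.053, -0.054, -0.034 and -0.065 in Ts65Dn and -0.0013, -0.0045, 0.11 and 0.098 in wild type. On that scale all Ts65Dn mice were below all wild-type mice, and wild-type mice 3 and 4 held most of the distance.

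Complex I also needs genes outside the member list. Of the 7 core subunits encoded in mitochondrial DNA only mt-Nd3 was measured under 1 symbol, with 11.39, 11.41, 11.15 and 11.38 in the Ts65Dn mice and 11.59, 11.00, 11.36 and 11.55 in the wild-type mice. Its groups overlapped, with a log2 fold change of -0.046 (adjusted p = 0.839, limma), and the other 6 were not analysed here. Of 15 further assembly factors 14 were measured, 0 were called, 0 had an unadjusted p under 0.05, and 9 were above 0, with a median of 0.13. Level-matched, the median was -0.031, 8 of 14 were below 0, 4 had an unadjusted p under 0.05 and 0 were called. Ecsit, which acts with Ndufaf1, stood at 0.27 (adjusted p = 0.158) and level-matched at -0.10. Foxred1, a flavoprotein needed for assembly, stood at 0.39 (adjusted p = 0.161) and level-matched at 0.47. Acad9, which is related to fatty acid dehydrogenases, stood at 0.22, and Nubpl, which supplies iron-sulphur clusters, at -0.19, and level-matched they stood at 0.11 and 0.087.

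Subunit genes of complexes II, III and IV of the chain gave values of the same small size. Complex II had a median of -0.081 with 3 of 4 below 0, complex III -0.031 with 8 of 9, and complex IV -0.031 with 10 of 12. Level-matched, the medians were -0.12, -0.067 and -0.056. None of these was called by limma and none had an unadjusted p under 0.05. Of 16 genes for mitochondrial content, import and regulation, 14 were above 0, with a median of 0.18, 6 had an unadjusted p under 0.05 and 0 were called. Level-matched, 11 of the 16 were above 0, with a median of 0.12, 3 had an unadjusted p under 0.05 and 0 were called. Among them Gabpa had 9.03, 9.24, 9.16 and 9.20 in the Ts65Dn mice and 8.68, 8.36, 7.38 and 8.89 in the wild-type mice. All Ts65Dn mice were above all wild-type mice, of which mouse 3 was lowest, and the log2 fold change was 0.83 (adjusted p = 0.0732, limma) and 0.57 level-matched. Tfam, which packages and transcribes mitochondrial DNA, stood at 0.53 (adjusted p = 0.071) and level-matched at 0.20. Esrra, which encodes ERR alpha, stood at -0.45 (adjusted p = 0.0619) and level-matched at -0.58. Ppargc1a, a coactivator of mitochondrial gene expression, stood at 0.41 with an interval that included 0, and level-matched at 0.16.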

How the data were processed

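Soleus RNA of 8 mice was measured on 8 arrays, 1 per mouse. The deposited values are RMA output of Affymetrix Expression Console 1.1, per the submitters' processing notes, and were read as log2 values from their range. The build is not given in the sources used here. Of 35556 probe sets, 21789 have 1 symbol, 1621 several and 12146 none. Symbols were updated by Entrez identifier with RefSeq GRCm38.p6. Each gene kept the probe set of highest mean, which left 19938 genes.

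The 2 groups were compared in limma 3.58.1 (R 4.3.3) by lmFit and eBayes, two-sided and without a covariate. P-values were adjusted by Benjamini-Hochberg over the 19938 genes, and calls were made under 0.05. The members, lists and tests were chosen with earlier results of these data known. Genes given by mouse are the core subunits, Ndufv3, Ndufa4, Ndufa4l2, the 6 subunits and 3 Ndufaf genes with the smallest p, the 3 subunits with the most positive and the 3 with the most negative fold change, and members whose probe sets differ in sign. The fit was tested on simulated data for this comparison over 19938 genes with 200 changed. It recovered 80.0% of changes of size 1 and 95.0% of size 2 on the log2 scale, with 4.89% of calls false. Recovery of smaller changes was not tested, and the log2 fold changes of the members ran from -0.28 to 0.56. The mean interquartile range of the deposited arrays was 2.745 in Ts65Dn and 2.321 in wild type. Whether the percentages hold for arrays of such unequal spread was not tested. The number of arrays limits the precision. In all, 19 alternatives were tried. Python 3.11.15 with pandas 2.3.3 and matplotlib 3.10.9 made tables and plots.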

Additional observations from a re-analysis of the deposited data

Results flagged for a closer look

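In the wild-type group, mouse 2 stood below the other mice in 2 subunit genes by a gap that was large relative to the group's range. Its log2 value of Ndufb5, an accessory subunit of the distal membrane arm, was 11.22, against 11.49 to 11.53 in the others, a gap of 0.896 of the group's range. For Ndufa4 it was 12.06, against 12.15 to 12.17, a gap of 0.852 of the range. Both are above Dixon's 95% critical value for 4 samples. In all, 86 groups of 4 were looked at and 2 passed, where chance passes about 1 in 20. Wild-type mouse 2 also held the lowest value of 14 of the 36 subunits.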

How the results depend on the processing

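In 19 alternatives, 0 of the 36 subunit genes were called in each. Some alternatives called only 0 or 1 of all 19938 genes, so that 0 subunit calls there say little about the subunits. Among them were quantile normalization, the replicate block and most of the fits with 1 mouse left out. The Ndufaf genes, and with them the 43 members, gave 0 to 1 calls when 1 mouse was left out and 0 under other alternatives. The 1 call was Ndufaf7 without wild-type mouse 4, a fit that called 2422 of the 19938 genes. The subunit median of -0.038 became 0.15 after centring, -0.13 under cyclic loess and -0.12 without wild-type mice 2 and 3, and leaving out 1 mouse at a time gave -0.10 to 0.015. The Ndufaf median of 0.058 became -0.13 after quantile normalization, 0.24 after centring, -0.15 under cyclic loess and -0.13 with level matching. Of 361 values of 19 named genes, 324 kept their sign and side of the threshold and 36 changed sign. Centring moved the median of all genes from -0.10 to 0.081.

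After centring, the log2 fold change was 0.16 for Ndufa11, 0.033 for Ndufa13, 0.030 for Ndufa2, 0.17 for Ndufa4, 0.039 for Ndufa8, 0.066 for Ndufaf3, 0.057 for Ndufs3, 0.042 for Ndufs7 and 0.18 for Ndufv3. After quantile normalization it was -0.043 for Ndufb3, -0.035 for Ndufv1 and -0.079 for Ndufv2, and under cyclic loess -0.064, -0.070 and -0.10. With level matching these were -0.025, -0.026 and -0.086, and without wild-type mice 2 and 3 they were -0.055, -0.031 and -0.093, with Ndufs1 at -0.059. Array weights gave -0.037 for Ndufv2. Leaving out 1 mouse at a time gave -0.081 to 0.045 for Ndufa11, -0.042 to 0.012 for Ndufa4, -0.038 to 0.040 for Ndufv2 and -0.10 to 0.053 for Ndufv3. The causes of these changes were not tested.

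Over all genes the calls were 1049, with 462 higher and 587 lower. They were 0 after quantile normalization, 142 under cyclic loess, 90 with level matching, 236 with array weights, 436 among genes above the median level, 1 without wild-type mice 2 and 3, and 0 to 2865 when 1 mouse was left out. Leaving out wild-type mouse 1 gave the 2865, wild-type mouse 4 gave 2422, and any other mouse 0 or 1. Centring gave 990, with 911 higher and 79 lower. With all probe sets adjusted together 0 were called. The labels number the replicates and name no link between same-numbered mice. The deviations of same-numbered mice correlated at 0.012 to 0.091, and those of mice with different numbers at -0.12 to 0.089. These values cannot show whether same-numbered mice were linked. With a replicate block, 0 of 43 members and 0 of all genes were called, and the subunit median was -0.038.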

Other observations

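Probe sets that name several genes were not used as members. The probe set of Ndufs5 and its pseudogene had log2 values of 11.05, 11.06, 11.06 and 11.00 in the Ts65Dn mice and 11.10, 10.55, 11.13 and 11.24 in the wild-type mice. Wild-type mouse 2 was lowest here too, the groups overlapped, and the log2 fold change was 0.039. Ndufb4, an accessory subunit of the distal membrane arm, shares its 2 probe sets with the copy Ndufb4b, so that their signals cannot be told apart. They had log2 fold changes of -0.23 and -0.22, with unadjusted p of 0.0813 and 0.0849 by limma. In the first of them the Ts65Dn mice were at 11.35, 11.31, 11.38 and 11.20 and the wild-type mice at 11.45, 11.35, 11.65 and 11.69.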
